A study of Mus musculus with 6 samples.

Results

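The 10 genes described here encode transcription factors that build or keep the acinar cell, the enzyme-secreting cell of the pancreas. They are Ptf1a, Rbpjl, Rbpj, Tcf3, Bhlha15, Nr5a2, Gata4, Gata6, Foxa3 and Spdef. They were chosen by symbol from a deposited table of 36333 genes, and all 10 were among the 12441 genes with enough reads to be tested. The samples are pancreas RNA of wild-type (WT) mice, 3 after intraperitoneal saline and 3 after intraperitoneal cerulein. Cerulein, a peptide related to the gut hormone cholecystokinin, overstimulates acinar cells. Its dose was 200 µg/kg/h in a volume of 200 µl, repeated 10 times, with tissue taken when the course ended. The labels give no age, sex or strain, and they do not say whether each sample came from its own mouse, so p-values measure the spread between these samples only. The question addressed is which acinar fate factors fell and which rose at this early stage of acute pancreatitis.

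Acinar enzyme genes are driven by PTF1, a complex of the basic helix-loop-helix protein Ptf1a, an E protein such as the Tcf3 product and a DNA-binding subunit of the RBPJ family. In the embryonic pancreas that subunit is Rbpj, better known as the nuclear effector of Notch signalling, and in mature acinar cells it is replaced by the tissue-restricted relative Rbpjl. Bhlha15 (MIST1) scales up the secretory apparatus, Nr5a2 (LRH-1) is a nuclear receptor that works with PTF1 at enzyme genes, Gata4 and Gata6 act in pancreas formation and, for Gata6, in acinar maintenance, Foxa3 is a forkhead factor of endoderm organs, and Spdef is an ETS factor best known from mucus-secreting cells.

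Library totals ran from 5335117 to 7610775 reads, and single counts of the 10 genes from 55 to 2831. The tissue label was checked with 8 acinar marker genes (Cpa1, Cela1, Pnlip, Cel, Ctrb1, Clps, Zg16 and Cuzd1), which took 25.3%, 32.7% and 32.7% of reads in the saline libraries and 20.8%, 22.6% and 19.8% in the cerulein libraries, each in the order of replicates 1, 2 and 3 that is kept below. Of these markers 7 fell and 1 did not pass the test, with a median log2 fold change of -1.38. Saline replicate 1 stood apart, with 6 neutrophil markers summing to 216 CPM against 17.8 and 40.9 CPM in the other saline libraries and 50.2 to 118 CPM in cerulein. CPM are read counts relative to library size after TMM scaling, a method that sets the bulk of genes level between libraries. In whole tissue, fewer cells of a type and less RNA per cell cannot be told apart.

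After cerulein, 5 of the 10 factors fell (Rbpjl, Nr5a2, Bhlha15, Spdef and Gata4), 2 rose (Ptf1a and Foxa3), and 3 did not pass the test (Rbpj, Tcf3 and Gata6). Calls rest on edgeR's quasi-likelihood test with Benjamini-Hochberg adjustment over all genes tested and a threshold of 0.05. By the same rule 27.1% of all genes tested fell and 28.7% rose, 55.8% in either direction, against 7 of these 10, so calls were common in this comparison. The median log2 fold change of the 10 factors was -0.69, against -0.0009 for all genes tested. Every cerulein library lay below every saline library for the same 5 factors and above for the same 2, while 30.6% and 32.4% of all genes tested were separated downward and upward, 63.0% in all. The number that fell was 4 and the number that rose 3 when library size alone replaced TMM scaling. Without saline replicate 1 the factors that rose were also 3, as Rbpj passed, and 5 fell.

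**Figure D1:**
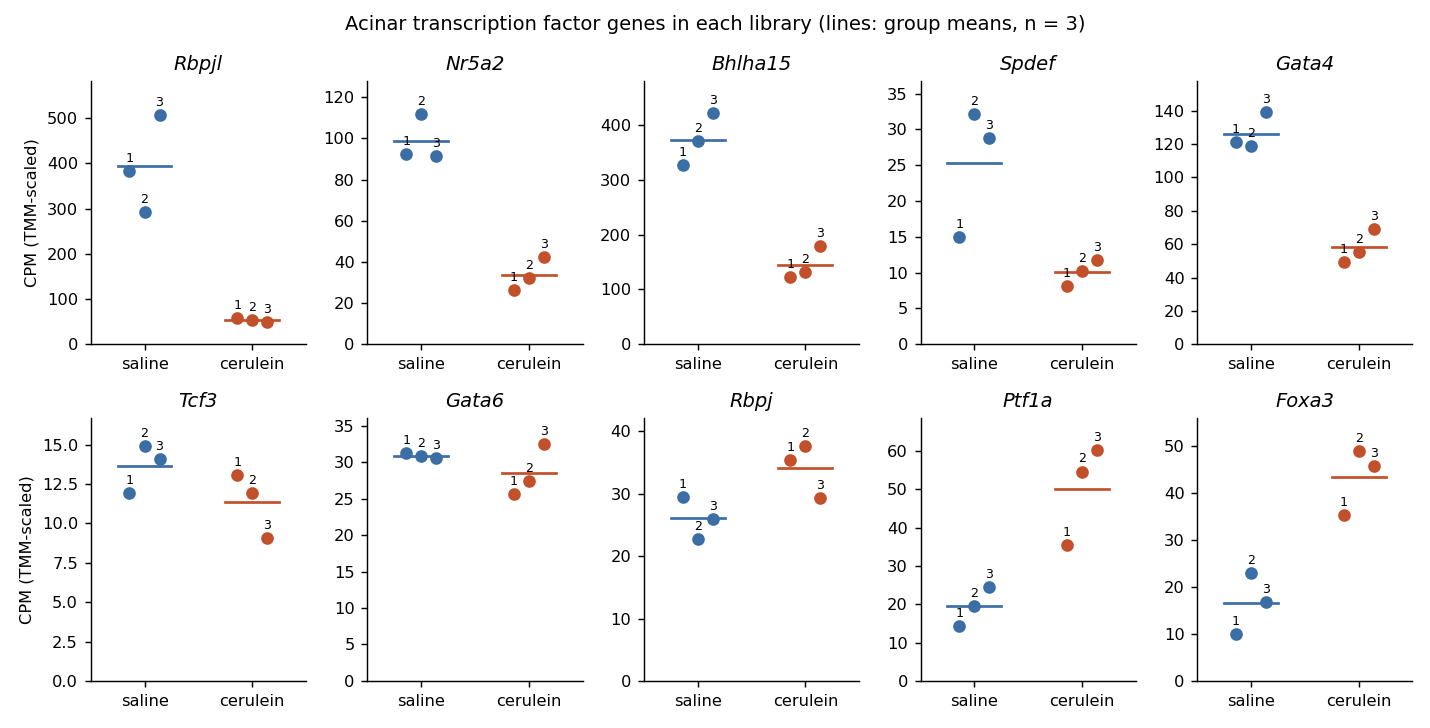
Level of each factor in CPM (y axis, linear from 0) in the 3 saline (blue) and 3 cerulein (orange) libraries, with replicate numbers beside the points and lines at the group means. Rbpjl, Nr5a2, Bhlha15, Spdef and Gata4 lie lower in every cerulein library, Ptf1a and Foxa3 lie higher, and Tcf3, Gata6 and Rbpj overlap between groups.

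Rbpjl, the mature DNA-binding subunit of PTF1, showed the steepest fall of the 10. It stood at 383, 292 and 506 CPM in saline and at 58.8, 52.8 and 48.0 CPM in cerulein. All cerulein libraries were close together and far below the lowest saline library. The log2 fold change was -2.89 ± 0.22 (SE, n = 3 each, adjusted p = 2.69e-07, edgeR), or 7.39-fold lower, and 2.11% of all genes tested had a more negative value. Ptf1a, the master gene of acinar fate, moved the other way. It was at 14.4, 19.6 and 24.4 CPM in saline and at 35.4, 54.6 and 60.1 CPM in cerulein, so that the groups did not overlap. Its log2 fold change was 1.38 ± 0.24 (adjusted p = 3.41e-04, edgeR), or 2.61-fold higher.

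Rbpj, the subunit that PTF1 uses before Rbpjl takes over, was at 29.4, 22.8 and 26.0 CPM in saline and 35.4, 37.6 and 29.3 CPM in cerulein. The lowest cerulein library lay just under the highest saline library. The log2 fold change of 0.38 ± 0.17 missed the threshold (95% interval 0.01 to 0.75, adjusted p = 0.073, edgeR). In 3 of 13 other settings it passed: without saline replicate 1, at 0.46 (adjusted p = 0.0385, edgeR), without a count filter, at 0.45, and with library size alone, at 0.93. Library size alone moved the median of all genes tested by 0.565. Among the settings where Rbpj did not pass were DESeq2, at 0.38 (adjusted p = 0.143), and upper-quartile factors, at 0.19 (adjusted p = 0.382, edgeR). Tcf3, which encodes the E proteins E12 and E47, had the lowest mean of the 10 in saline, with 11.9, 14.9 and 14.1 CPM in saline and 13.1, 11.9 and 9.09 CPM in cerulein. These groups overlapped, with a log2 fold change of -0.25 ± 0.21 (95% interval -0.71 to 0.21, adjusted p = 0.337, edgeR), which turned to 0.33 with library size alone.

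The genes of PTF1 subunits were also compared with each other inside each library, as a ratio of reads does not depend on how libraries are scaled. Such a ratio can still move with the mix of cells in whole tissue, which was not tested. There were 13, 12.8 and 19.5 reads of Rbpjl for each read of Rbpj in saline, and 1.66, 1.40 and 1.64 in cerulein. The log2 ratio moved from 3.88 ± 0.34 to 0.64 ± 0.13 (SD, n = 3 each), a difference of -3.24, or 9.45-fold. Ptf1a had 0.0374, 0.0672 and 0.0483 reads per Rbpjl read in saline and 0.602, 1.04 and 1.25 in cerulein, a log2 difference of 4.21. In 2 of the 3 cerulein libraries Ptf1a thus had more reads than Rbpjl, without correction for exon length (1508 bases for Ptf1a, 5732 for Rbpjl). For each Tcf3 read there were 1.2 to 1.73 Ptf1a reads in saline and 2.69 to 6.61 in cerulein, a log2 difference of 1.63. The groups did not overlap for any of these ratios. Each gave p = 0.1 in a two-sided exact permutation test, the smallest that 3 against 3 allows, and 0.1 after adjustment over the 6 ratios tested.

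The start regions of these genes were read from RefSeq promoter windows of the GRCm38.p6 assembly (the mm10 build), which run from 250 bases before to 50 after a start. They are shown because PTF1 binds a paired site: an E-box (CANNTG), contacted by Ptf1a and its E protein, and a TC-box (TGGGAA or, on the other strand, TTCCCA), contacted by Rbpj or Rbpjl. Both strands were searched, and capitals mark both motifs. The stretch of Rbpjl that holds them lies at chr2:164403089-164403118 on the plus strand, and the 250 bases before the Ptf1a start at chr2:19445413-19445662, also on the plus strand.
Rbpjl: gTGGGAAgcctaCATCTGcccagCAGGTGt
Ptf1a: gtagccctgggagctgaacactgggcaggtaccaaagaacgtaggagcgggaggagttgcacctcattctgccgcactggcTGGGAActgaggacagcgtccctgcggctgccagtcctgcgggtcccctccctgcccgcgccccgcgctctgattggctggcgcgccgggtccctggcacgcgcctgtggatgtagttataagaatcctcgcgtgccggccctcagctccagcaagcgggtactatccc
In Rbpjl a TC-box at position -104 was followed after 5 bases by an E-box at -93 and after 16 bases by another at -82, counted back from the RefSeq start. The Ptf1a window held a TC-box at -169 and no E-box. Among 32851 windows of the same length, 72.3% held an E-box, 25.6% a TC-box, 5.21% both with at most 20 bases between them and 0.542% both with a gap of 5. That gap of 5 was taken from the Rbpjl window itself, so 0.542% is not the share for a spacing set in advance. Of the 8 factors with a window in the table, Rbpjl and Rbpj had a pair at most 20 bases apart, with a gap of 19 in Rbpj. Gata4 and Gata6 had no entry. These matches describe letters and do not show binding.

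Annotation limits the reading of both genes. Ptf1a lies at chromosome 2, 19445663 to 19447501 (mm10), and the antisense gene Ptf1aos covers 40.4% of its exon bases. The sources used here do not say whether counting used strand, so reads of the pair may not be separable, and Ptf1aos itself had 4 to 10 reads per library. Rbpjl, at chromosome 2, 164403141 to 164415448, shares 2.60% of its exon bases with Matn4 on the other strand. Matn4, encoding a matrix protein, went from 23.0, 25.5 and 23.9 CPM in saline to 4.62, 4.8 and 6.06 CPM in cerulein, far under Rbpjl in each library.

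Outside PTF1, Bhlha15, Nr5a2, Gata4 and Spdef fell by 2.18-fold to 2.93-fold. Bhlha15, whose product enlarges the granule and endoplasmic reticulum machinery, was at 327, 371 and 422 CPM in saline and 123, 132 and 180 CPM in cerulein. All cerulein libraries lay well under the lowest saline library. Its log2 fold change was -1.36 ± 0.20 (SE, n = 3 each, adjusted p = 6.13e-05, edgeR). Nr5a2 went from 92.4, 112 and 91.5 CPM to 26.5, 32.3 and 42.4 CPM, again without overlap, at -1.55 ± 0.18 (adjusted p = 1.29e-05, edgeR).

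Bhlha15 also had the highest level of the 10 per kilobase of exon in both groups, and the 250 bases before its start (chr5:144190036-144190285, plus strand) are shown with E-boxes in capitals, since its own product and Ptf1a both bind that motif.
Bhlha15: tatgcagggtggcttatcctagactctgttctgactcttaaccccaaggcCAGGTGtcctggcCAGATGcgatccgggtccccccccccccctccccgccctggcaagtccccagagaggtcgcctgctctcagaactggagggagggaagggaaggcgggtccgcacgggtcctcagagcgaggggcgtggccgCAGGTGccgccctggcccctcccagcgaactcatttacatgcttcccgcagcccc
The Bhlha15 window held 3 E-boxes, at -200, -187 and -55, and no TC-box. It was the only member window with a match to the NR5A2 motif CAAGGNCA (or TGNCCTTG on the other strand), with 2 matches, of which that at -206 overlaps the first E-box, against 6.71% of all windows with at least 1. The GATA motif AGATAA (or TTATCT) was found in the Rbpjl window and in 1 of the 2 Nr5a2 windows, against 11.2% of all windows.

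Spdef stood at 14.9, 32.2 and 28.8 CPM in saline and 8.17, 10.2 and 11.7 CPM in cerulein. Saline replicate 1 was lower than the other saline libraries yet above all cerulein libraries, and the log2 fold change was -1.31 ± 0.28 (adjusted p = 0.00152, edgeR). Markers of gut epithelium, where Spdef is also made, were near 0. Their sum was 0.948 to 3.15 CPM in saline and 2.60 to 5.81 CPM in cerulein, Fabp2 and Cdx2 were at 0 in all 6 libraries, and 1 of 6 (Vil1) had enough reads to be tested. Vil1 was called higher in cerulein, at 1.55 ± 0.60 (adjusted p = 0.0434, edgeR), on 1 to 10 reads per saline library, and its part in the result was not tested. Foxa3, which controls metabolic genes in liver and gut, rose from 9.89, 23.0 and 16.7 CPM to 35.4, 49.0 and 45.7 CPM. The lowest cerulein library was well above the highest saline library, with a log2 fold change of 1.42 ± 0.27 (adjusted p = 8.41e-04, edgeR), or 2.68-fold. Of 5 liver markers 2 had enough reads to be tested, Ttr and Cyp2e1, and both fell. Apoa1 and Serpina1a were at 0 in all libraries, and the sum of the 5 was 32.7 to 52.2 CPM in saline and 7.72 to 11.1 CPM in cerulein. Most of that sum was Ttr, from 25.6 ± 10.5 to 3.72 ± 0.41 CPM, and Cyp2e1, from 14.9 ± 5.07 to 5.41 ± 2.18 CPM (SD, n = 3). The sum thus follows these 2 genes, and whether it reflects liver was not tested.

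The GATA pair separated. Gata4, at chromosome 14, 63198922 to 63271692, was at 121, 119 and 139 CPM in saline and 49.4, 55.5 and 69.1 CPM in cerulein, at a log2 fold change of -1.12 ± 0.17 (adjusted p = 7.78e-05, edgeR). With library size alone it was -0.55 and no longer passed (adjusted p = 0.0502). Gata6 was at 31.3, 30.9 and 30.6 CPM in saline, the tightest values of any of the factors, and 25.6, 27.5 and 32.5 CPM in cerulein. Its log2 fold change of -0.12 ± 0.16 did not pass (95% interval -0.46 to 0.23, adjusted p = 0.553, edgeR) and was 0.45 with library size alone. There were 3.87, 3.85 and 4.55 Gata4 reads per Gata6 read in saline and 1.93, 2.02 and 2.13 in cerulein, without overlap. The log2 ratio differed by -1.01, or 2.01-fold (two-sided exact permutation p = 0.1, the smallest possible). Fibroblast and endothelial cells can also express GATA factors. Their marker sums were 351 to 408 and 132 to 155 CPM in saline and 319 to 432 and 136 to 161 CPM in cerulein, with 2 of 6 and 1 of 6 markers higher and 1 of each lower. Their part in the result was not tested.

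**Figure D2:**
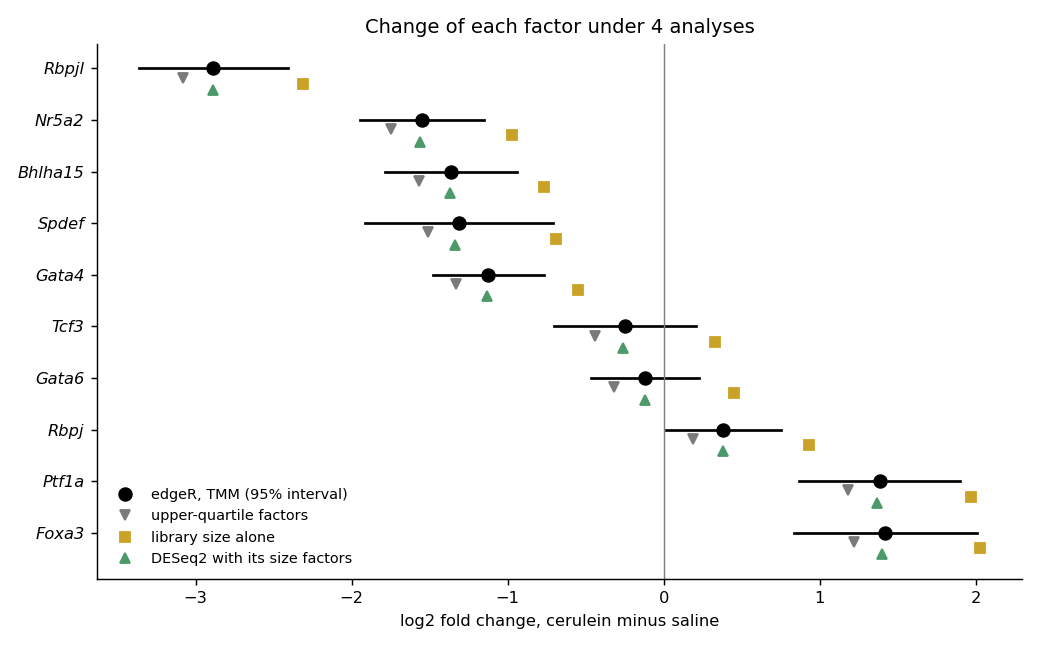
Log2 fold change of each factor, cerulein minus saline (x axis), by edgeR with TMM scaling (black points with 95% intervals) and by edgeR with upper-quartile factors, edgeR with library size alone and DESeq2. The 5 factors that fell and the 2 that rose stay on their side of 0 in all of these, while Tcf3 and Gata6 change sign with library size alone.

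Ratios to Ptf1a showed how far the other factors parted from it. Bhlha15 had 22.7, 18.9 and 17.3 reads per Ptf1a read in saline and 3.48, 2.41 and 2.99 in cerulein. Its log2 ratio went from 4.28 ± 0.20 to 1.55 ± 0.27 (SD, n = 3 each), a difference of -2.73. Nr5a2 had 6.43, 5.74 and 3.75 reads per Ptf1a read in saline and 0.749, 0.591 and 0.706 in cerulein, a log2 difference of -2.92. Nr5a2 thus had more reads than Ptf1a in every saline library and fewer in every cerulein library. These reads are not corrected for exon length, 5899 bases for Nr5a2 and 1508 for Ptf1a, and so do not rank levels. Both ratios gave p = 0.1 in the exact permutation test, the smallest possible.

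**Figure D3:**
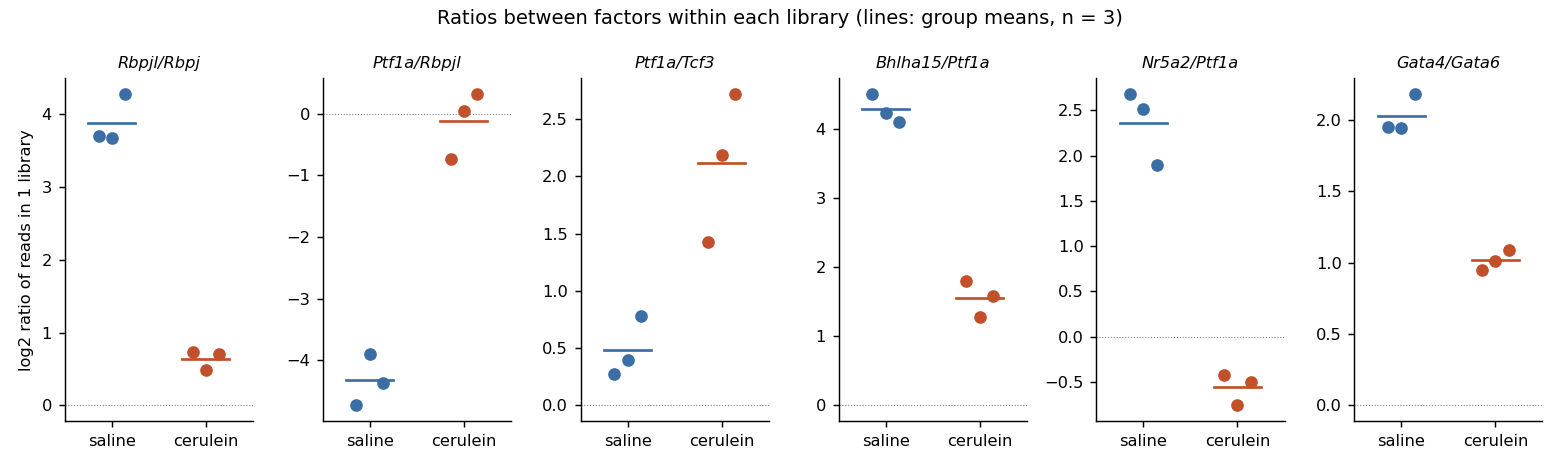
Log2 ratio of reads of paired factors inside each library (y axis, own range in each panel) for 3 saline (blue) and 3 cerulein (orange) libraries, with lines at group means and a dotted line where both genes have equal reads. No panel has overlapping groups, and Ptf1a/Rbpjl moves from a mean of -4.33 to -0.12.

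The factors were next set against the acinar markers, a scale chosen after the values had been seen. Per 100000 reads of the 8 marker genes, Rbpjl had 64.1 to 155 reads in saline and 26.3 to 36.7 in cerulein, a log2 difference of -1.75. Ptf1a rose on this scale from 4.30 to 5.82 reads in saline to 22.1 to 38.2 in cerulein, a difference of 2.46, and Foxa3 by 2.56. The groups overlapped for Bhlha15, Nr5a2, Gata4 and Spdef, with log2 differences of -0.27, -0.47, -0.03 and -0.17. Rbpj, Gata6 and Tcf3 were higher by 1.49, 0.98 and 0.83 with no overlap. As 7 of the 8 markers themselves fell, this scale shifts every factor upward, and an unchanged gene would lie above 0. Gata6 and Tcf3 had log2 fold changes of -0.12 and -0.25 by edgeR, so their higher values here do not show a rise. The exact permutation p was 0.1, the smallest possible, for the 6 factors without overlap, and 0.3 to 0.9 for the other 4, with adjusted values of 0.167 and 0.429 to 0.9 over the 10 factors. For those 4 factors the difference relative to acinar marker RNA was thus within the spread of the libraries, which does not show that none exists.

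Per kilobase of annotated exon, the order of the factors changed. In saline the means were 107 ± 13.7 CPM per kb for Bhlha15, 68.7 ± 18.7 for Rbpjl, 32.4 ± 2.89 for Gata4, 16.7 ± 2.0 for Nr5a2 and 12.9 ± 3.34 for Ptf1a (SD, n = 3). Spdef, Foxa3, Gata6, Tcf3 and Rbpj followed, from 11 down to 2.04 CPM per kb. Neighbours from Nr5a2 to Foxa3 in this order overlapped, and the others did not. In cerulein the leading means were 41.5 ± 8.75 CPM per kb for Bhlha15, 33.2 ± 8.61 for Ptf1a, 21.3 ± 3.49 for Foxa3, 14.8 ± 2.59 for Gata4 and 9.28 ± 0.95 for Rbpjl. Each of the first 4 overlapped its neighbour, while Rbpjl overlapped neither Gata4 above nor Nr5a2 below. Ptf1a rose from position 5 to 2 and Foxa3 from 7 to 3, as Rbpjl went from 2 to 5. Exon lengths are unions over GENCODE transcripts (1508 bases for Ptf1a, 12750 for Rbpj), which lowers the value of genes with many rarely used exons.

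**Figure D4:**
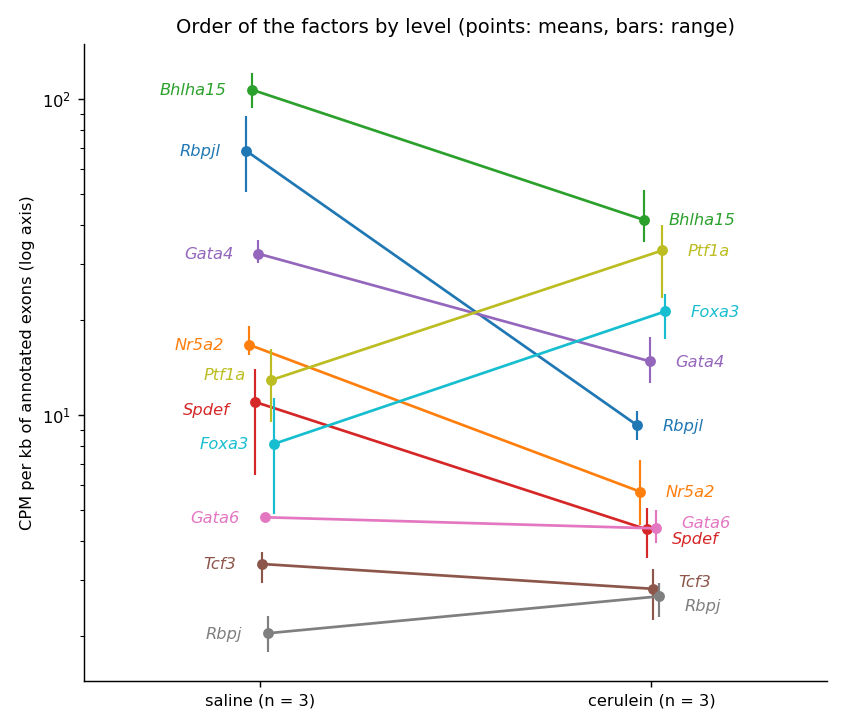
Mean level of each factor in CPM per kb of annotated exons (log y axis) in saline and cerulein, with bars from the lowest to the highest of 3 libraries. Rbpjl drops from place 2 to 5, Ptf1a climbs from 5 to 2 and Foxa3 from 7 to 3.

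Lists of genes around the factors are read against the shares of all genes tested, 28.7% higher and 27.1% lower. Of 10 tested genes among E proteins, their ID inhibitors and other partners, 3 rose, 3 fell and 4 did not pass, with a median log2 fold change of 0.22, which is near those shares. Hes1, a Notch-induced repressor known to oppose Ptf1a activity, rose from 7.71 ± 2.45 to 23.6 ± 0.40 CPM (SD, n = 3; log2 change 1.66 ± 0.23 SE, adjusted p = 4.06e-05, edgeR). Id3, which holds E proteins off DNA, rose by 1.36 ± 0.28, from 8.21 to 20.5 CPM, while its relative Id2 fell by 0.68 ± 0.19, from 33.2 to 20.5 CPM. Tcf4, an E protein gene, fell by 0.90 ± 0.18. The falls of Id2 and Tcf4 lost their call with library size alone.

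Among 18 tested Notch pathway partners of Rbpj, 5 rose, 2 fell and 11 did not pass, with a median of -0.13. The share that rose was near that of all genes, and the number that fell was 5 with upper-quartile factors and 0 with library size alone. The receptor gene Notch2 rose from 16.6 ± 7.10 CPM in saline to 63.4 ± 5.64 in cerulein, at 1.89 ± 0.24 (adjusted p = 3.88e-05, edgeR). Dll1, a Notch ligand, went from 0.914 to 5.29 CPM, a log2 change of 2.53 ± 0.41. The co-activator gene Maml3 fell by 1.09 ± 0.20, a call lost with library size alone.

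Target genes of the factors were counted next. Of 15 enzyme and granule genes bound or driven by PTF1 and NR5A2, 14 fell, none rose and 1 (Ctrb1) did not pass, at -0.75 ± 0.31 (adjusted p = 0.0514, edgeR), with a list median of -1.69. The colipase gene Clps fell from 15164 ± 5113 to 2585 ± 605 CPM (SD, n = 3). Its log2 change was -2.55 ± 0.32 (SE), and that of the lipase-related gene Pnliprp1 -1.97 ± 0.27. Amy2b was at -2.05 ± 0.28, but near-identical amylase copies make its reads uncertain. The acinar markers overlap this list, as 6 of those 8 genes are in it.

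For MIST1, 5 of 9 listed target genes fell, none rose and 4 did not pass, with a median of -0.66. Tmed6, a cargo receptor gene, fell by 1.44 ± 0.25, Copz2, a coat protein gene, by 0.97 ± 0.19, Atp2c2, a Golgi calcium pump gene, by 1.32 ± 0.34 and Rab26, a granule GTPase gene, by 0.66 ± 0.20 on the log2 scale. Leaving out replicate 2 or 3 of saline, or replicate 2 of cerulein, left 3 that fell, and Rab26 lost its call in each of those cases. With library size alone 1 fell and 1 rose.

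Nuclear receptor genes linked to NR5A2 fell for 8 of 11 tested and rose for 2, with a median of -0.62. Nr1h4, encoding the bile acid receptor FXR, had 28.7 ± 2.48 CPM in saline and 1.40 ± 0.14 CPM in cerulein, at -4.33 ± 0.23 (adjusted p = 1.51e-08, edgeR). Nr0b2, encoding SHP, a co-repressor that FXR and NR5A2 are known to regulate, went from 17.2 ± 3.02 to 2.20 ± 0.30 CPM, at -2.95 ± 0.26. The co-activator gene Ncoa1 fell by 0.61 ± 0.15, a call lost with library size alone. Without cerulein replicate 3 the number that fell was 5, and with library size alone 2.

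The relatives of Foxa3 did not move together. Foxa1 was nearly silent in saline, with 0.161 ± 0.140 CPM, and reached 5.81 ± 1.08 CPM in cerulein (adjusted p = 1.20e-05, edgeR). Its saline libraries held 0, 1 and 1 reads and its cerulein libraries 48, 41 and 55, a ratio of 45.4 with an exact 95% interval of 12.3 to 379 for counting error only. The fitted log2 change of 5.30 ranged from 4.46 to 5.82 over the other settings. Foxa2 fell from 32.5 ± 13.5 to 15.4 ± 2.99 CPM, at -1.05 ± 0.29, a call lost with library size alone. Zfpm1, encoding the GATA cofactor FOG1, fell by 1.28 ± 0.17, close to Gata4. Of 7 tested genes in this list 2 rose, 2 fell and 3 did not pass, with a median of 0.06. The number that rose was 1 with DESeq2, with upper-quartile factors, and on leaving out replicate 1 or 3 of saline or replicate 2 of cerulein.

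Transcription factors of ducts and progenitors rose for 7 of 12 tested genes, fell for 3 and did not pass for 2, with a median of 0.74. Elf3, an epithelial ETS factor like Spdef, rose from 12.5 ± 2.08 CPM in saline to 95.8 ± 10.5 in cerulein, at 2.95 ± 0.18 (adjusted p = 3.68e-08, edgeR). Klf5 rose by 3.10 ± 0.29, Klf4 by 1.64 ± 0.18 and the duct factor Sox9 by 1.35 ± 0.21. Among those that fell were Prox1, by 1.43 ± 0.41, and the pancreas progenitor factor Pdx1, at -1.23 ± 0.38, and none of the 3 was called with library size alone. Of 8 duct markers, 5 rose and 2 fell, and their sum was 414 to 515 CPM in saline and 1001 to 1228 CPM in cerulein. The higher sum rested on the keratin gene Krt19, which went from 23.3 ± 6.20 to 685 ± 95.4 CPM. Without it, a sum chosen after the values were seen, the 7 others came to 396 to 485 CPM in saline and 389 to 447 CPM in cerulein, while Muc1 fell from 295 ± 41.1 to 112 ± 9.98 CPM. Whether more duct cells or more of these transcripts per cell lay behind this was not tested. Hes1 is in 3 of the lists and Prox1 in 2.

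**Figure D5:**
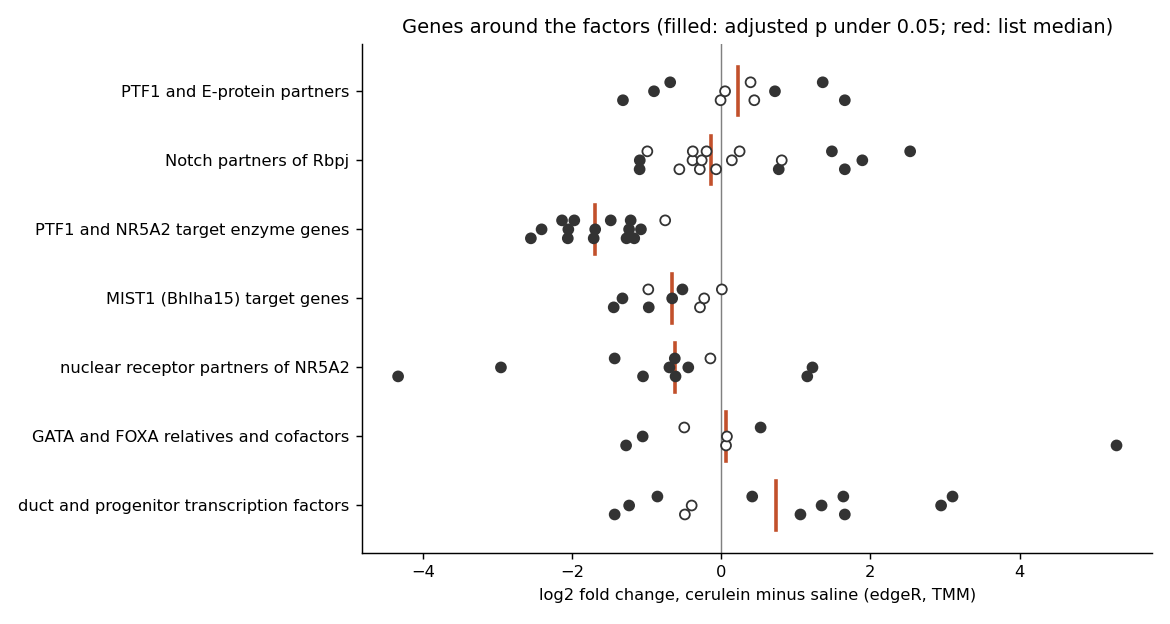
Log2 fold change, cerulein minus saline (x axis), of each tested gene of 7 lists around the factors, with filled points for adjusted p under 0.05 and red lines at list medians. The target enzymes lie below 0 throughout, duct and progenitor factors spread from -1.43 to 3.10, and Foxa1, with 2 saline reads in all, is the point at 5.30.

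The factors were also ranked by likeness to each other, as the root mean square difference of log2 CPM over the 6 libraries after centring each gene. Bhlha15 and Gata4 were closest at 0.143, followed by Bhlha15 and Nr5a2 at 0.182, while Rbpjl and Foxa3 were farthest apart at 2.21. Among tested genes whose average log2 CPM was 3 or more, Rbpjl was nearest to the amino acid transporter gene Slc38a3 (0.057), then Mpv17l (0.162) and Arntl2 (0.169). Ptf1a was nearest to Trex1 (0.134), Noc4l (0.152) and Yars2 (0.153), and Foxa3 to Rcn1 (0.138), Tmem115 (0.155) and Rsad2 (0.166). For Bhlha15 these were Psmb2 (0.066), Serp1 (0.096) and Qsox2 (0.105), for Nr5a2 Trim23 (0.110), Lyrm5 (0.112) and Ptrhd1 (0.119), and for Spdef Fam174a (0.076), Usp46 (0.089) and Gal (0.116). Gata4 was nearest to Rspry1 (0.061), Zfp654 (0.075) and Btbd3 (0.083) and Gata6 to Cebpz (0.054), Rab14 (0.055) and Dennd6a (0.058). Rbpj was nearest to Gtpbp1 (0.075), Rab5c (0.078) and Zfp180 (0.085), and Tcf3 to Tceanc2 (0.039), Rufy1 (0.058) and Ctsa (0.072). With 6 libraries in 2 groups, such distances mostly reflect the size of the group difference.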

How the data were processed

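The deposited table holds raw counts for 36333 genes in 6 libraries, with no column of other samples (0) and no row without a gene name (0). Per the labels' protocols, TRIzol was used for pancreas RNA and a stranded TruSeq mRNA kit for the libraries. Trimmomatic, STAR, HTSeq and mm10 are named in the submitters' processing notes. The sources used here give no versions, annotation or strand setting. In these counts genes inside or across other genes can lose reads, so overlaps of the 10 genes were looked up in GENCODE.

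The quasi-likelihood test of edgeR 4.0.16 (R 4.3.3) ran on all genes passing filterByExpr (minimum count 10, minimum total 15), with TMM factors of 0.719 to 1.03 in saline and 1.13 to 1.30 in cerulein, and the procedure was tested on simulated counts. SE values come from the F statistics. Within-library ratios added 0.5 to each count. Scaling by upper-quartile factors and by library size alone shifted the all-gene median on the log2 scale by -0.197 and 0.565, and changes are relative to TMM. Other analyses used DESeq2 1.42.0, limma 3.58.1, other count filters, a replicate block and each library left out in turn. Symbols were matched to RefSeq for 8 of the 10 promoters. Intervals cover the spread between libraries only.

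The 10 genes, 7 context lists and 11 marker lists were chosen with earlier results of these data known. All 10 genes are named, with the 4 listed genes of smallest p per context list and the 3 most alike genes of each factor. Some genes that this rule selects are not reported here. Sox9 is named as a duct marker. Matn4, Ptf1aos, Ctrb1, Prox1, Pdx1, Vil1, Ttr, Cyp2e1, Krt19, Muc1 and 1010001N08Rik were named after their values were seen.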

Additional observations from a re-analysis of the deposited data

How the results depend on the processing

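Of 130 values of single factors under other settings, 124 kept direction and call. Rbpj passed in 3, Gata4 was lost in 1, and Tcf3 (0.33) and Gata6 (0.45) reversed with library size alone. Relative to acinar marker reads, chosen after seeing the data, Tcf3 (0.83) and Gata6 (0.98) lay above 0. The fall of the markers places any unchanged gene there, so this adds nothing to the reversal. All 42 ratio values kept their direction, which leaving out a library could not change, as the groups did not overlap for any ratio. Of 182 counts in the context lists, 164 stayed within 1.5 times. With library size alone, 0 E-protein partners, 0 Notch partners, 0 duct and progenitor factors, 1 MIST1 target, 2 nuclear receptor partners and 1 GATA or FOXA relative fell, and 1 MIST1 target rose. With upper-quartile factors 5 Notch partners and 5 duct and progenitor factors fell. Calls over all 12441 genes tested moved as well. They were 1449 lower and 5181 higher with library size alone and 4190 lower and 2895 higher with upper-quartile factors. With TMM scaling they were 3373 lower and 3574 higher. DESeq2 and upper-quartile factors each left 1 GATA or FOXA relative higher. Leaving out 1 library gave 3 to 6 lower MIST1 targets, 5 to 7 lower nuclear receptor partners and 1 to 2 higher GATA or FOXA relatives. The cause of these shifts was not tested.

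With the replicate number as a block, 2 factors rose and 5 fell, as without it, and 3673 genes were called higher and 3401 lower, against 3574 and 3373. The labels state nothing that same-numbered libraries share beyond the number, and their deviations correlated at 0.19, 0.216 and -0.15. With so few libraries, these values cannot tell whether same-numbered libraries shared a day or litter. Libraries numbered 1 and 2 correlated best with their own number, and those numbered 3 did not. Tcf3 rested on 55 to 111 reads per library, and the 95% interval of its log2 fold change ran from -0.71 to 0.21. A small difference in it is therefore not excluded.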

Other observations

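The gene 1010001N08Rik, annotated as a processed transcript on the opposite strand and sharing 504 bases with the span of Gata6, fell although Gata6 did not pass the test. It stood at 8.13, 11.5 and 9.51 CPM in saline replicates 1, 2 and 3 and at 0.71, 0.234 and 0.253 CPM in cerulein, from 60, 51 and 37 reads to 6, 2 and 2. The log2 fold change was -4.53 ± 0.43 (adjusted p = 1.74e-06, edgeR). It shares 1.43% of the exon bases of Gata6, and the strand setting of the counting is not stated. It was noticed after its values were seen.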
